A study of Mus musculus with 60 samples.

Results

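The submandibular and the sublingual gland of the same mouse were compared in 22 of the 60 RNA libraries of the series, 1 library of each gland from 11 of its 12 animals. The libraries were chosen by the tissue label and paired by the animal number and letter in the library name. The mice were CD1, a stock kept by outbreeding, or C57, which is inbred. CD1 gave 3 males and 3 females, and C57 gave 2 males and 3 females to this comparison; age is not given in the sources used here. An animal is called here by its strain, sex and replicate number. The labels give the mice no treatment or genotype beyond the strain. Within a series on how mouse saliva evolved, the comparison asks which duct, acinar and mucous genes separate these neighbouring glands.

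Saliva is made by acini, which secrete fluid and protein, and is modified by ducts, which take back salt and add proteins of their own. In rodents the submandibular gland has seromucous acini and granular convoluted tubules, a duct segment that responds to androgen, is larger in males and stores growth factors and kallikreins in granules. The sublingual gland is mainly mucous: its acini make gel-forming mucin, a protein covered in O-linked sugars, and carry caps of serous cells called demilunes.

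C57 male 2 was left out with both glands because its sublingual library held submandibular transcripts, a choice that rests on measured values. In plain CPM, a gene's count scaled to the same total in every library, Prol1 stood at 22940 in that library and at no more than 1062 in the other 11 sublingual libraries. All other levels are CPM scaled by the trimmed mean of M-values (TMM) over the 22 libraries, unless plain CPM is stated. Among the libraries kept, the submandibular library of CD1 male 1 had Mucl2 at 252500 CPM against at most 145200 in the other submandibular libraries. The submandibular library of C57 female 1 had Klk1 at 2925 CPM, against 25830 and 24870 in the other C57 females. The defining products were where the labels put them in all 22 libraries, with the submandibular product Car6 at 31350 CPM or more in submandibular and 1281 or less in sublingual gland, and the sublingual mucin Muc19 at 10010 or more in sublingual and 217 or less in submandibular gland. Total counts per library lay between 29871176 and 51229615 in submandibular and between 33755805 and 50044224 in sublingual gland. The 10 genes with most counts in a library took 33.7% to 55.1% of the counts in submandibular and 18.9% to 30.3% in sublingual gland.

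A gene was called different between the glands when its adjusted p was under 0.05 and its paired difference was at least 2-fold, with edgeR's quasi-likelihood test and Benjamini-Hochberg adjustment over all genes tested. Of 16880 genes tested, 7981 (47.3%) passed by adjusted p alone and 2697 (16%) were called, 1300 (7.7%) higher in submandibular and 1397 (8.28%) higher in sublingual gland. The number was 2631 with C57 male 2 kept and 2743 without CD1 male 1 and C57 female 1. The libraries of the glands did not overlap in 1710 genes (10.1%): in 618 (3.66%) all 11 submandibular libraries were above all 11 sublingual libraries, and in 1092 (6.47%) all were below. The tissue is bulk, so fewer cells of a type and less RNA per cell cannot be told apart. A log2 difference below is submandibular minus sublingual, with its standard error (SE), and a negative value means higher in sublingual gland.

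The duct programme of the submandibular gland was led by granular tubule products. All 20 listed genes were tested, and 18 were called higher in submandibular gland, none higher in sublingual, with a median log2 difference of 5.10 against 0.01 over all genes. Together they held 0.299% to 26.7% of the counts in submandibular and 0.250% to 0.587% in sublingual libraries. The wide submandibular range followed sex: 12.0% to 26.7% in males and 0.299% to 3.05% in females.

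Egf, the epidermal growth factor precursor, ran from 298 to 79530 CPM in submandibular libraries, with a median of 1522, and from 232 to 505, with a median of 288, in sublingual libraries. The ranges overlapped only through C57 female 1, whose submandibular Egf stood at 298 CPM. The log2 difference was 4.05 (SE 0.93, adjusted p = 0.00246), and it was not called in C57 animals alone (3.31, adjusted p = 0.101).

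Ren1, renin, differed by 6.26 on the log2 scale (SE 0.95, adjusted p = 8.74e-05), and by 5.18 in the fit with no replicate block. Its submandibular mean was 11670 CPM in CD1 males, 258 in CD1 females, 69.9 in C57 males and 11.2 in C57 females, while the sublingual group means lay between 0.362 and 42.5. Renin copy number differs between mouse strains, and reads of another copy may be counted as Ren1. Crisp3, a cysteine-rich secretory protein, differed by 5.02 (SE 0.76, adjusted p = 8.67e-05), with medians of 2623 CPM in submandibular and 166 in sublingual gland. The list's exceptions were Crisp1, at 2.21 with an adjusted p of 0.0530, and the growth factor Tgfa, whose difference of -0.39 (adjusted p = 0.0426) was under 2-fold.

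The kallikreins are serine proteases, and the mouse Klk1b genes are a cluster of close copies on chromosome 7, several of which cut growth factor precursors. Klk1 is the tissue kallikrein of striated and granular ducts. Klk1 lay between 2925 and 25830 CPM, median 9226, in submandibular and between 1350 and 2432, median 1652, in sublingual libraries, so that every submandibular library was above every sublingual library. Its log2 difference of 2.71 (SE 0.36, adjusted p = 2.38e-05) was the smallest among the called members of the list. All 13 Klk1b genes were called, at differences from 4.56 for Klk1b27 to 6.22 for Klk1b5. In C57 alone 14 of 20 products of the list were called, and Klk1b1 (adjusted p = 0.0509), Klk1b27 (0.0512) and Klk1b8 (0.0727) were not. Klk1b8 was not called in CD1 alone either (adjusted p = 0.0617).

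Klk1b26 was at 262 to 55900 CPM with a median of 3017 in submandibular gland, against 14.4 to 242 with a median of 118 in sublingual gland. Its difference was 5.72 (SE 1.0, adjusted p = 0.000288), and the libraries of the glands did not overlap. Klk1b5 lay between 61.2 and 7278 CPM, median 689.8, in submandibular and between 3.83 and 27.9, median 13.3, in sublingual gland, again without overlap. Klk1b22 and Klk1b4 differed by 5.66 (SE 0.99) and 5.62 (SE 0.98), both with an adjusted p of 0.000289 or less, and their ranges overlapped. Reads that fit several copies can be split among them, so values of single Klk1b genes are uncertain. Without CD1 female 2 the difference of Klk1b27 was 5.16. That of Klk1b8, 4.78, was 4.10 to 4.17 on leaving out any of the 5 males, and 5.37 to 5.48 on leaving out C57 female 1 or any of the CD1 females.

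The promoters of the Klk1b genes are shown because the cluster moved together and its copies are close in sequence. They are the 250 bases before the start of Klk1b5 (chr7:44216224-44216473) and of Klk1b26 (chr7:44012428-44012677), plus strand, from RefSeq on GRCm38.p6, a different build from that of the counts. Capitals mark TTTAAA, the A and T rich element near the start.
Klk1b5: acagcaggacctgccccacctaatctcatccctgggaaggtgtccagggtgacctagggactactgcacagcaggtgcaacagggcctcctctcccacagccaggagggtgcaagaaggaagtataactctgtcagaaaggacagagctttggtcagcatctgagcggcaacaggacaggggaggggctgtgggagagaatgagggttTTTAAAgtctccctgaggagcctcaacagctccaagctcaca
Klk1b26: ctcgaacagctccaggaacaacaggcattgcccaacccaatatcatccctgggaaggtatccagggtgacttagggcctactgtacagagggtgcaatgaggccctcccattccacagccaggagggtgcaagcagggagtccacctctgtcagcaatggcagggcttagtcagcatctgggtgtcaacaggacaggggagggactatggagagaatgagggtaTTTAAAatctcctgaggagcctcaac
A gene was counted when any of its promoters of this length held the element on either strand. TTTAAA was found in 12 of the 14 Klk1 and Klk1b genes and in 13.7% of all 27025 genes with a promoter entry. The element AGAACA, a part of hormone receptor binding sites, was found in 2 of the 14 and in 18.2% of all. Windows of 300 bases, which hold the 250 bases before the start and run past it, were aligned. Identity was taken over the aligned bases without gaps. The Klk1b windows were 80.7% to 97.7% identical to each other over at least 240 aligned bases. Klk1 was 77.1% to 86.1% identical to them over at least 202. These matches describe letters in a window and show no binding.

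Ion transport genes of the ducts were also higher in submandibular gland. Of 20 listed genes 18 were tested, 12 were called higher in submandibular and 2 higher in sublingual gland, with a median of 1.38. Slc9a3, the apical sodium-proton exchanger, lay between 22 and 57 CPM, median 30.3, in submandibular and between 0.342 and 1.43, median 0.991, in sublingual gland. Every submandibular library was above every sublingual library, and the difference of 5.16 (SE 0.19, adjusted p = 6.45e-11) was the largest of the list. The epithelial sodium channel reabsorbs sodium across the duct: its beta subunit Scnn1b had medians of 129.6 and 14.1 CPM and a difference of 3.28 (SE 0.21, adjusted p = 1.48e-08). Its gamma subunit Scnn1g differed by 2.62, while the alpha subunit Scnn1a differed by 0.66 (adjusted p = 0.00188), which was under 2-fold.

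Bsnd, an accessory subunit of chloride channels (2.70), the chloride channel Cftr (2.31) and the proton pump subunit Atp6v1b1 (1.67) were called higher in submandibular gland, and none of these overlapped between glands. The potassium channel Kcnma1 (1.17) and carbonic anhydrase Car2 (1.37) were called with overlapping ranges. Among the sodium pump genes, the beta subunit Atp1b1 was at 1476 against 506 CPM (medians) and differed by 1.36 (SE 0.13, adjusted p = 1.06e-06). The pump regulator Fxyd2 differed by 1.44 (adjusted p = 9.51e-05). The exceptions transport bicarbonate: the chloride-bicarbonate exchanger Slc26a6 was at 96.9 to 204 CPM in sublingual and 9.80 to 37.3 in submandibular gland, a difference of -2.83 (SE 0.23, adjusted p = 2.38e-07). The sodium-bicarbonate cotransporter Slc4a4 differed by -1.49 (SE 0.18, adjusted p = 9.42e-06).

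General duct and epithelial identity genes did not separate the glands in the same way. Of 20 tested, 5 were called higher in submandibular and 2 higher in sublingual gland, and the median was 0.24. Foxi1, a transcription factor of ion-transporting duct cells, lay between 15.6 and 88.7 CPM, median 29.1, in submandibular and between 2.29 and 5.49, median 3.72, in sublingual gland, and Ascl3, a transcription factor of duct cells, had medians of 36.1 and 6.54. Neither overlapped between glands, at differences of 3.16 (SE 0.23, adjusted p = 5.72e-08) and 2.61 (SE 0.27, adjusted p = 2.52e-06). The tight junction gene Cldn4 (1.86), the secreted protein Wfdc2 (1.21) and the keratin Krt15 (3.28, at a mean of only 1.76 CPM in submandibular gland) were the other calls in that direction.

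The shared duct transcription factor Tfcp2l1 stood at 858 and 506 CPM (medians in submandibular and sublingual gland; difference 0.75). The keratins Krt8 (-0.28, adjusted p = 0.0700) and Krt18 (-0.68) and the transcription factor Ehf (-0.62) also stayed under 2-fold. The calls toward the sublingual gland were Prom1, prominin, at a difference of -2.76 (SE 0.22, adjusted p = 1.49e-07), and Ltf, the iron-binding protein lactoferrin. Ltf lay between 13.2 and 327 CPM in sublingual gland and between 0.518 and 2.80 in submandibular gland, a difference of -5.80 (SE 0.47, adjusted p = 1.78e-07) without overlap.

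**Figure D1:**
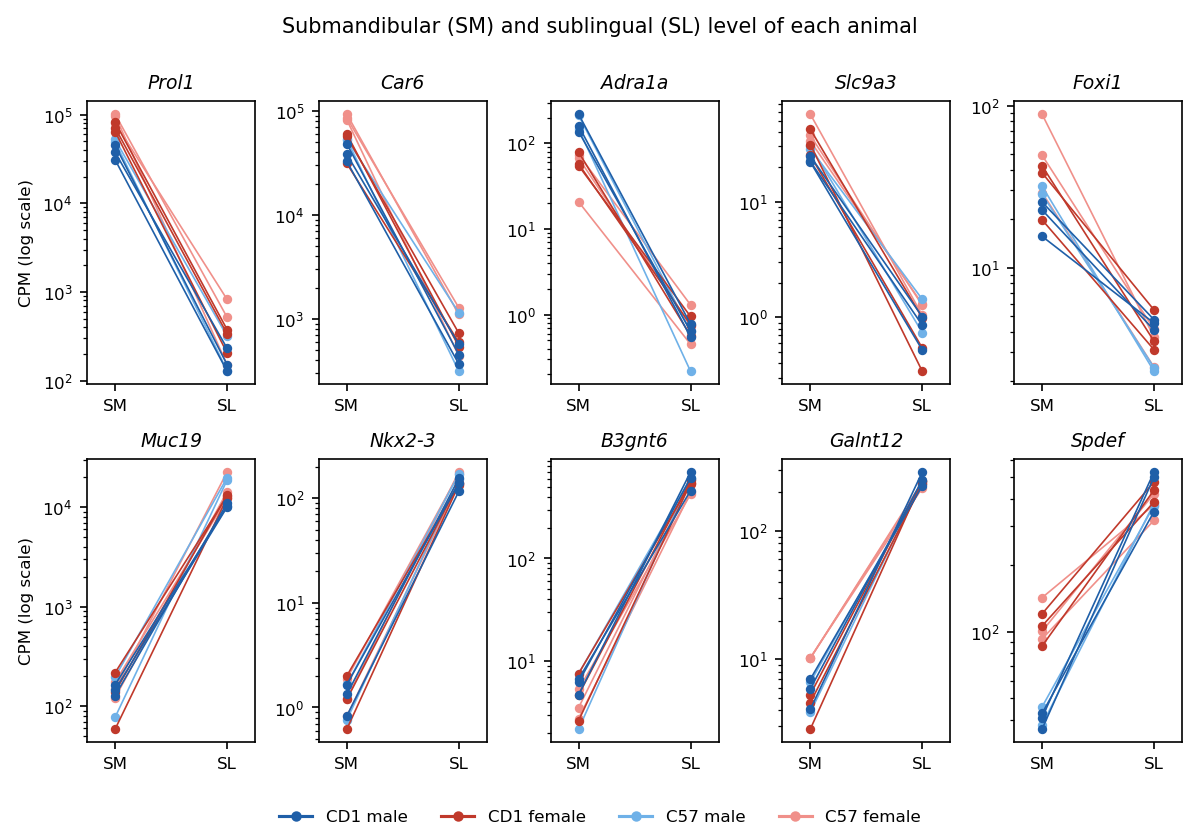
Level in CPM (log axis) of 10 genes in the submandibular (SM) and sublingual (SL) library of each of 11 animals, 1 line per animal, coloured by strain and sex. Prol1, Car6, Adra1a, Slc9a3 and Foxi1 fell in every animal from SM to SL and Muc19, Nkx2-3, B3gnt6, Galnt12 and Spdef climbed in every animal, and in none of the 10 do the libraries of the glands overlap.

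Acinar secretory proteins divided into submandibular and sublingual sets. Of 19 tested, 9 were called higher in submandibular and 4 higher in sublingual gland, and the list held 22.3% to 44.0% of the counts of submandibular and 5.05% to 14.6% of those of sublingual libraries. The submandibular set was Prol1, Mucl1, Mucl2, Scgb1b27, Scgb2b26, Scgb2b27, Car6, Pip and Lpo. The sublingual set was Dcpp1, Dcpp2, Dcpp3 and Azgp1.

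Car6, a carbonic anhydrase secreted into saliva, lay between 31350 and 93410 CPM, median 53680, in submandibular and between 314 and 1281, median 568, in sublingual gland. The glands did not overlap and the difference was 6.46 (SE 0.36, adjusted p = 4.18e-09). Lpo, lactoperoxidase, an antibacterial enzyme, lay between 443 and 2005 CPM against 13.4 to 63.2, a difference of 5.29 (SE 0.23, adjusted p = 3.47e-10), also without overlap. Pip, the prolactin-induced protein, differed by 5.38 (SE 0.35, adjusted p = 2.21e-08) with medians of 18810 and 365 CPM.

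The secretoglobins are small secreted proteins of a multigene family, so reads may be shared among copies. Scgb1b27 was at 37050 to 134900 CPM in submandibular and 199.9 to 5350 in sublingual gland, a difference of 6.45 (SE 0.57, adjusted p = 4.91e-07). Its neighbour Scgb2b27 differed by 5.56 (SE 0.61, adjusted p = 4.13e-06), and neither overlapped between glands. For the salivary proteins Prol1 and Mucl2 the sublingual mean was 0.473% and 0.442% of the submandibular mean, at log2 differences of 7.88 (SE 0.40, adjusted p = 1.92e-09) and 7.74 (SE 0.58, adjusted p = 8.16e-08).

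Dcpp1, Dcpp2 and Dcpp3 are copies of the demilune cell and parotid protein, a product of serous demilunes. Dcpp2 lay between 24870 and 48470 CPM, median 34670, in sublingual and between 219 and 913, median 558, in submandibular gland, and Dcpp1 between 6075 and 19510 against 142 to 281. Both were apart in every library, at differences of -6.10 (SE 0.34, adjusted p = 4.53e-09) and -5.58 (SE 0.30, adjusted p = 2.75e-09). Azgp1 was called at -1.30 (adjusted p = 0.0408), and leaving out an animal ended that call for 7 of the 11 animals, with adjusted p up to 0.0856; those animals were C57 female 1, 2 and 3, C57 male 1 and 3, CD1 female 2 and CD1 male 1. The difference was -2.69 in C57 alone (adjusted p = 0.00212) and -0.09 in CD1 alone (adjusted p = 0.893), and the test of that strain difference passed, at 2.77 (SE 0.51, adjusted p = 0.0371). Among the listed BPIF proteins, secreted proteins that bind lipids and bacteria, 2 of 13 were tested, and Bpifa2 was called higher in sublingual gland (-1.31, SE 0.28, adjusted p = 0.00129). The call was not made in males alone (-0.88) or in CD1 alone (-0.96). Bpifa2 is mainly a parotid product. Its plain CPM median was 274900 in parotid, 9986 in sublingual, 2600 in submandibular gland and 2062 in liver. Carry-over of parotid transcripts was not tested. None of the 5 tested parotid markers was called between the glands, but 16% of all genes were called, so 5 genes cannot decide it.

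The fluid secretion machinery, which moves salt and water into saliva, gave 5 calls among 19 tested genes, where 16% of all genes were called. Of these, 2 were called higher in submandibular and 3 higher in sublingual gland, with a median over the 19 of 0.20. By the adjusted p alone 15 of 19 passed, 10 of them at under 2-fold, where 47.3% of all genes passed. In males alone 2 were called higher in submandibular and 6 higher in sublingual gland, and in females alone 2 and 2. The water channel Aqp5 had medians of 402 CPM in submandibular and 574 in sublingual gland (difference -0.63), the sodium-potassium-chloride cotransporter Slc12a2 1104 and 855 (0.26, adjusted p = 0.352), and the potassium channel Kcnn4 546 and 357 (0.66). The granule protein Rab3d differed by -0.94 (adjusted p = 0.000235), and the calcium-gated chloride channel Ano1 by 0.33. All 5 were under 2-fold.

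The larger differences within this machinery were in receptors that nerves act on. Adra1a, an alpha adrenergic receptor, lay between 20.8 and 219 CPM, median 79.0, in submandibular and between 0.217 and 1.3, median 0.639, in sublingual gland, and Adrb1, a beta adrenergic receptor, between 35.6 and 124 against 2.83 to 9.27. Both were higher in all 11 submandibular libraries, at differences of 7.13 (SE 0.37, adjusted p = 2.30e-09) and 3.81 (SE 0.15, adjusted p = 1.52e-10). Vipr1, a receptor for vasoactive intestinal peptide, went the other way, at 115 to 176 CPM in sublingual and 14 to 36.1 in submandibular gland (-2.81, SE 0.14, adjusted p = 9.96e-10). The muscarinic receptor Chrm1 was at a median of 30.6 CPM in sublingual and 6.15 in submandibular gland (-2.27, SE 0.15, adjusted p = 2.04e-08), whereas Chrm3, the main muscarinic receptor of salivary acini, was at 49.9 and 42.3 (-0.42, adjusted p = 0.0223). The ATP-gated channel P2rx4 was also called (-1.01) and fell just under 2-fold on leaving out CD1 female 2 or 3 or any of the CD1 males. Adra1a was not in the list for this machinery, and it was named because it was among the 12 largest differences toward the submandibular gland.

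The mucous programme of the sublingual gland was led by Muc19, a gel-forming mucin. Of 14 listed mucin cores 13 were in the table and 8 were tested, of which 1, Muc19, was called higher in sublingual and 2, Muc13 and Muc6, higher in submandibular gland. Muc19 lay between 10010 and 22510 CPM, median 12930, in sublingual and between 58.7 and 217, median 146, in submandibular gland. No library overlapped and the difference was -6.68 (SE 0.30, adjusted p = 5.21e-10).

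The other gel-forming mucins were near background: Muc5b had at most 9 counts and Muc5ac at most 10 in any of the 22 libraries and both were left untested, and Muc2 was at a mean of 0.686 CPM in submandibular and 0.433 in sublingual gland (0.81, adjusted p = 0.0738). Muc13, a membrane mucin, lay between 2.13 and 234 CPM, median 53.2, in submandibular and between 0.245 and 5.10, median 0.969, in sublingual gland, a difference of 5.96 (SE 0.47, adjusted p = 1.55e-07). Its ranges overlapped, and it was higher in the submandibular library of all 11 animals. Muc6 was called at 2.68 (adjusted p = 0.000700) with a median of 1.47 CPM in submandibular gland and the library of CD1 female 2 at 9.82.

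O-glycosylation enzymes, which build the sugar chains of mucins, leaned toward the sublingual gland. Of 34 listed genes 26 were tested, 13 were called higher in sublingual and 3 higher in submandibular gland, and the median was -0.87. Without CD1 male 1 and C57 female 1 the numbers were 12 and 4. The direction differed between enzymes.

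The first sugar is added by the Galnt transferases, of which 11 were tested. Of these, 6, Galnt2, Galnt4, Galnt5, Galnt6, Galnt7 and Galnt12, were called higher in sublingual gland, and Galnt1 was called higher in submandibular gland. Galnt12 lay between 217 and 288 CPM, median 242, in sublingual and between 2.85 and 10.3, median 5.88, in submandibular gland (-5.34, SE 0.22, adjusted p = 1.82e-10). Galnt5 (-5.23, SE 0.28), Galnt6 (-4.28, SE 0.17), Galnt4 (-4.19, SE 0.11) and Galnt7 (-2.38, SE 0.17) did not overlap between glands either. Galnt3 (0.32), Galnt10 (-0.11), Galnt11 (-0.31) and Galnt15 (0.96) stayed under 2-fold, Galnt2 was close to 2-fold (-1.05) and fell under it without C57 female 1 (-0.97), and Galnt1 differed by 1.18 (SE 0.19, adjusted p = 0.000164).

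Chain extension enzymes followed. B3gnt6, which adds N-acetylglucosamine to the first sugar, lay between 422 and 696 CPM, median 541, in sublingual and between 2.17 and 7.56, median 4.69, in submandibular gland (-6.90, SE 0.23, adjusted p = 2.62e-11). The branching enzyme Gcnt3 (-4.96, SE 0.54, adjusted p = 3.43e-06) and the extending enzymes B3gnt3 (-2.68), B3galt5 (-2.64) and B4galt1 (-1.57) were also higher in sublingual gland, each without overlap. C1galt1, which makes the alternative galactose core, differed by -0.53 (adjusted p = 0.00861) and its chaperone C1galt1c1 by -0.20 (adjusted p = 0.414).

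Sialyltransferases, which cap the chains, were divided. St3gal1 had a sublingual median of 2046 CPM and a difference of -2.61 (SE 0.67, adjusted p = 0.00525). St3gal4 was called at -1.30 (adjusted p = 0.0400), and that call was lost on leaving out any of the 5 males (C57 male 1 or 3, CD1 male 1, 2 or 3), with adjusted p of 0.0617 to 0.0860. St6galnac1 was called higher in submandibular gland, at 1.35 to 59.0 CPM against 0.136 to 0.543 (4.48, SE 0.66, adjusted p = 6.03e-05), as was St6galnac2 (2.51, SE 0.49, adjusted p = 0.000686).

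Genes for folding and packaging mucin gave 4 calls toward the sublingual gland and none toward the submandibular gland among 8 tested of 13 listed. Fcgbp, a protein that binds to mucin gels, lay between 52.9 and 103 CPM in sublingual and between 1.19 and 6.23 in submandibular gland (-4.53, SE 0.23, adjusted p = 1.78e-09). The disulfide isomerase Pdia5 had medians of 109 and 12.6 CPM (-2.88, SE 0.18, adjusted p = 1.46e-08), and Bcas1 differed by -3.18 (SE 0.47, adjusted p = 6.39e-05). Agr2, an isomerase that intestinal mucins need to fold, differed by -1.20 (SE 0.26, adjusted p = 0.00143) and overlapped between glands, with -0.71 and no call in females alone and -0.58 and no call in C57 alone. Cracr2a was at 558 CPM in submandibular and 298 in sublingual gland (medians; 0.99, under 2-fold).

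**Figure D2:**
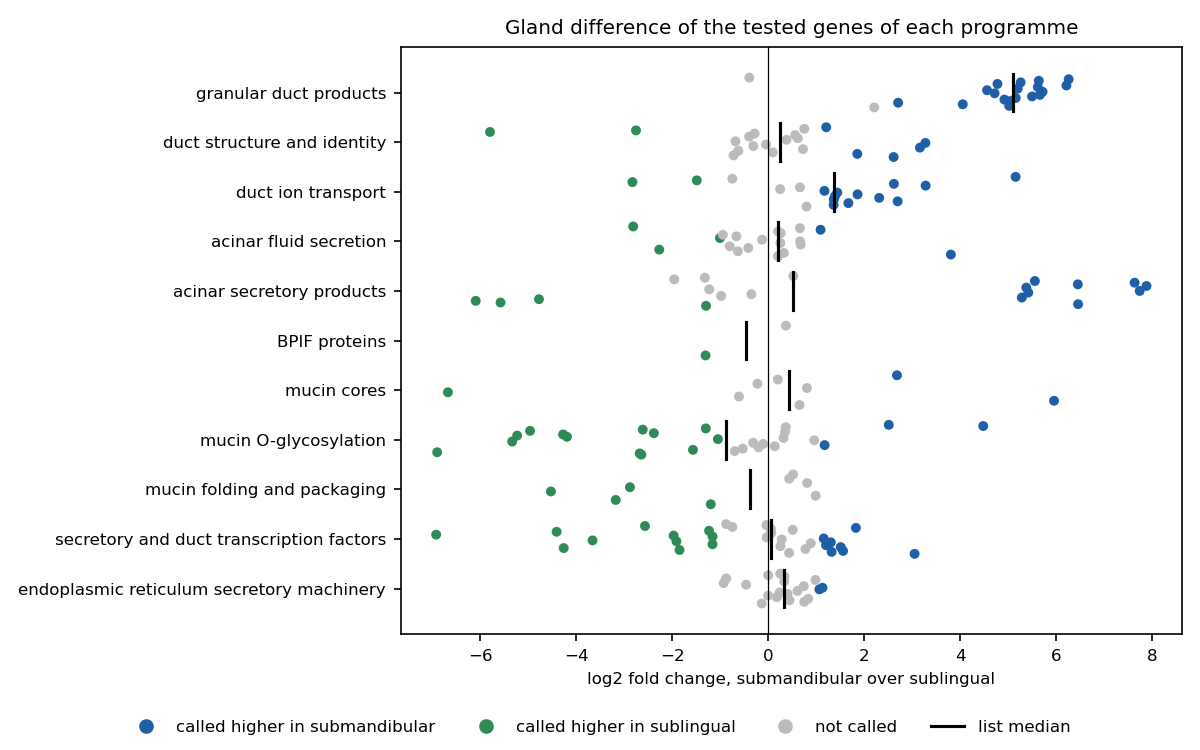
Log2 difference, submandibular over sublingual gland, of each tested gene of 11 programme lists, 1 point per gene (blue called higher in submandibular, green called higher in sublingual, grey not called) with the list median as a black bar. The granular duct products lie to the right with a median of 5.10, the O-glycosylation genes lie mostly to the left with a median of -0.87, and the acinar secretory products have calls on both sides.

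Transcription factors of secretory and duct cells were divided between the glands, with 8 called higher in submandibular and 11 higher in sublingual gland of 32 tested, and a median of 0.05. Nkx2-3, a homeobox factor, lay between 116 and 177 CPM, median 139.9, in sublingual and between 0.621 and 2.01, median 1.21, in submandibular gland, with no overlap (-6.92, SE 0.17, adjusted p = 2.78e-12). Spdef, a factor of mucous and goblet cells, was at 319.5 to 528 CPM in sublingual and 36.3 to 143 in submandibular gland (-2.57, SE 0.24, adjusted p = 6.69e-07). The related secretory factors Creb3l4 (-4.26, SE 0.36) and Creb3l1 (-1.85, SE 0.25) and the forkhead factors Foxa1 (-1.91, SE 0.15) and Foxa2 (-3.66, SE 0.16) went the same way without overlap. So did Klf5 (-1.97), Klf4 (-1.16) and Etv1 (-1.16), and Runx1 (-1.23) was called with overlapping ranges.

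Toward the submandibular gland, Bhlha15, a factor of serous secretory cells, was at 385 to 803 CPM against 176 to 295 in sublingual gland (1.56, SE 0.14, adjusted p = 6.06e-07), without overlap. Sox10 (1.83), Elf5 (1.51), Barx2 (1.32), Etv5 (1.3), Foxc1 (1.16) and Esrrg (1.21) were also called in this direction. Xbp1, a factor of the secretory pathway, differed by -0.88, under 2-fold, and the shared gland factors Pitx1 (0.06, adjusted p = 0.725), Pax9 (0.05, adjusted p = 0.576) and Trp63 (-0.04, adjusted p = 0.740) did not pass the test.

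Sox2 was not on that list, and it was among the 12 largest differences toward the sublingual gland, at 85.0 to 129 CPM in sublingual and 1.04 to 2.43 in submandibular gland (-6.11, SE 0.14, adjusted p = 2.78e-12). The same rule named A2ml1, a protease inhibitor, with medians of 79670 and 769 CPM (-6.79, SE 0.40), and Syt7, a calcium sensor for exocytosis, with 270.3 and 3.11 (-6.39, SE 0.18). Tmc5 (-6.34, SE 0.24), Sel1l3 (-5.94, SE 0.21), the potassium channel subunit Kcne1 (-5.86, SE 0.20) and Mup4, of the multicopy major urinary protein family (-5.86, SE 0.33), completed the set, each with an adjusted p of at most 6.71e-09. In all 7 of these genes every sublingual library was above every submandibular library.

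Machinery of the endoplasmic reticulum, which folds secreted proteins, gave 2 calls among 20 genes, both higher in submandibular gland, where 7.7% of all genes were called in that direction. They were the chaperones Hyou1 (1.13, SE 0.18, adjusted p = 0.000158) and Hspa5 (1.07, SE 0.24, adjusted p = 0.00205). Hspa5 fell under 2-fold on leaving out CD1 male 1 (0.96), CD1 male 2 (0.92) or CD1 male 3 (0.99). In females alone neither was called, at 0.69 (adjusted p = 0.0102) for Hyou1 and 0.50 (0.109) for Hspa5, and the list gave 0 calls higher in submandibular and 1 higher in sublingual gland. In males alone it gave 7 calls higher in submandibular gland. Calr (0.75), Hsp90b1 (0.61), Sec61a1 (-0.87) and Pdia4 (-0.93) stayed under 2-fold in either direction.

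Smgc, submandibular gland protein C, a secretory protein of the immature gland, and Muc19 are transcripts of the same locus: both were listed with the same exon, chr15:91722531-91722623 on GRCm39. The promoter of Smgc is shown because both genes share this listed first exon and differ in their gland pattern. It is chr15:91838078-91838327, plus strand, GRCm38.p6 from RefSeq, with TATAAA in capitals.
Smgc: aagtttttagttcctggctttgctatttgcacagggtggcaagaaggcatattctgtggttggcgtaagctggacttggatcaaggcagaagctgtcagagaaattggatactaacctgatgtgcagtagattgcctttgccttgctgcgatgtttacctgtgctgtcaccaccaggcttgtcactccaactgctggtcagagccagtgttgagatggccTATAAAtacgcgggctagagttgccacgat
TATAAA begins 30 bases before the start and was found, on either strand, in 14.3% of all 27025 genes with a promoter entry. Smgc was at 868 to 6304 CPM, median 2988, in sublingual libraries and at 7.52 to 7165, median 1990, in submandibular libraries. Its pooled gland difference of -1.96 (SE 1.35, adjusted p = 0.251) was not called, and the submandibular libraries fell into a female and a male range described below. Muc19 showed no such division, with a difference of -6.72 in males and -6.74 in females. Its submandibular median of 114 plain CPM was near the 104 of liver, so a sex difference under that level could not be seen. Reads from the shared exon can be assigned to either gene.

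Whether the gland difference depended on sex was tested as the male gland difference minus the female gland difference. Of 16880 genes, 1735 (10.3%) passed, 911 (5.4%) with a positive and 824 (4.88%) with a negative value. The number fell to 710 without C57 male 1 and to 914 without C57 male 3, each of which leaves 1 C57 male that is assumed to vary like the other groups. Among granular duct products 17 of 20 passed, all positive, and the median gland difference was 8.29 in males alone and 2.99 in females alone, with 19 and 18 of 20 called higher in submandibular gland.

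Submandibular Egf averaged 54540 CPM in CD1 males, 40200 in C57 males, 1305 in CD1 females and 749 in C57 females, and its interaction was 5.22 (SE 0.48, adjusted p = 4.18e-05). In sublingual gland the 4 group means lay between 249.7 and 384 CPM. Klk1b27, the Klk1b gene with the smallest p, had an interaction of 6.29 (SE 0.39, adjusted p = 2.86e-06), with submandibular means of 4240 CPM in males and 37.6 in females. Klk1 did not share this pattern: its submandibular means were 17870 and 18880 CPM in C57 and CD1 females and 7673 and 7913 in males, with an interaction of -1.25 (adjusted p = 0.203).

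Smgc showed the reverse. In submandibular gland it was at 1990 to 7165 CPM in the 6 females and at 7.52 to 66.3 in the 5 males, with no overlap, while sublingual means were 2780 CPM in males and 3298 in females. The interaction was -6.92 (SE 0.50, adjusted p = 7.34e-06), from a gland difference of -6.06 in males and 0.87 in females. Without C57 male 1 it was -7.57 and without C57 male 3 -6.30. In liver Smgc ran from 12.34 to 49.95 plain CPM, with a median of 28.85. The male submandibular values thus lay near the level of liver, and the sizes of the male gland difference and of the interaction are uncertain.

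Sialyltransferases also differed by sex in submandibular gland. St3gal1 averaged 1090 CPM in female and 80.5 in male submandibular glands, and 2031 and 2036 in sublingual glands, an interaction of -3.90 (SE 0.23, adjusted p = 2.21e-06). In females alone its gland difference of -0.90 was under 2-fold. St6galnac2 averaged 96.1 CPM in male and 11.3 in female submandibular glands and 5.05 and 5.62 in sublingual glands (3.15, SE 0.15, adjusted p = 5.15e-07). St6galnac1 followed it (4.24, adjusted p = 7.39e-06) and St3gal4 followed St3gal1 (-2.72, adjusted p = 3.69e-05). The branching enzyme Gcnt1 lay between 342 and 491 CPM in submandibular glands of CD1 females and between 3.83 and 4.07 in those of CD1 males. In C57 it was at 1.09 to 1.59 CPM in females and at 2.38 and 3.55 in males. Its interaction over both strains of -2.65 (adjusted p = 5.25e-05) thus covers a lower male level in CD1 and the opposite order in C57. Of the 26 O-glycosylation genes 12 passed, 6 in each direction, where 10.3% of all genes passed.

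Over all genes 10.3% passed the sex test, 5.4% with a positive and 4.88% with a negative value. Of 18 ion transport genes 7 passed: Scnn1b (1.06) and Cftr (1.31) were positive and Slc26a6 (-1.19), Fxyd2 (-1.08), Slc5a8 (-0.95), Kcnma1 (-0.82) and Atp6v1b1 (-0.78) negative. The 6 fluid secretion genes that passed, of 19 tested, were all negative: Aqp5 (-1.10), Kcnn4 (-0.93), Chrm3 (-0.88), Rab3d (-0.87), Slc12a2 (-0.86) and Itpr3 (-0.72). The share of granular duct products in the counts moved with sex in the same libraries, at the values given above, and its part in these differences was not tested. Of 32 transcription factors tested 10 passed, and 9 of these were negative. Among them were Creb3l4 (-2.0, adjusted p = 6.59e-05), Creb3l1 (-1.5, adjusted p = 0.00152) and Spdef (-1.44, adjusted p = 0.000682), and Esrrg was positive (1.35, adjusted p = 0.000934). The 7 passing endoplasmic reticulum genes, of 20 tested, were all positive, with Hspa5 at 1.16 (adjusted p = 0.00536). Marker lists of other cells also moved with sex: 7 of 8 myoepithelial and smooth muscle markers and 5 of 8 macrophage markers passed, all positive. The macrophage markers summed to 91.3 to 532 CPM in submandibular and 124 to 352 in sublingual gland, and the part of these cells in the values above was not tested.

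The remaining genes named by smallest p have no listed gland role. Faim2 averaged 18.8 CPM in male and 1.0 in female submandibular glands, with sublingual means of 2.95 and 2.71 (4.31, SE 0.21, adjusted p = 5.15e-07). Coro2a followed it (2.72, SE 0.16, adjusted p = 2.23e-06). Mob3b averaged 82.2 CPM in female and 10.6 in male submandibular glands (-2.83, SE 0.20, adjusted p = 7.34e-06), and Tll1, a secreted protease, 24.1 and 0.332 (-6.92, SE 0.50, adjusted p = 7.34e-06). In all 4 the libraries of the sexes did not overlap in submandibular gland. The male mean of Tll1 rests on few counts, so the size of its interaction is uncertain.

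**Figure D3:**
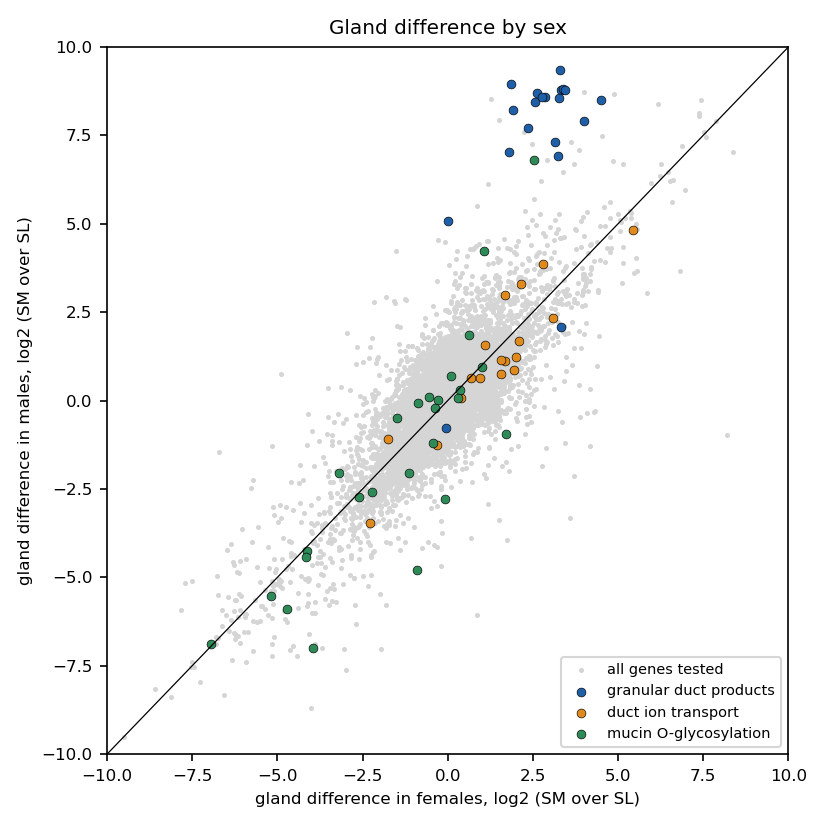
Gland difference in males against gland difference in females, both as log2 of submandibular over sublingual, for all 16880 genes tested (grey) and 3 lists (blue granular duct products, orange duct ion transport, green O-glycosylation), with the line of equality. The granular duct products sit above the line except Klk1 and Tgfa, and ion transport and O-glycosylation genes lie on both sides of it.

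Strain changed the gland difference in far fewer genes: 92 of 16880 (0.545%) passed, 48 (0.284%) with a positive CD1 minus C57 value and 44 (0.261%) with a negative one. Leaving out 1 animal gave between 20 (C57 male 1) and 96 (CD1 female 2), and the C57 males, C57 female 2 and 3, CD1 female 3 and CD1 male 1 and 3 each moved it by over 1.5 times. Of the 264 listed genes tested 8 passed: Dcpp3, Scgb2b27, Azgp1, Bcas1, Ltf, Ascl3, Galnt10 and St3gal4. Dcpp3 averaged 45500 CPM in C57 males and 36220 in C57 females in sublingual gland, against 296 and 219 in CD1. Submandibular means lay between 62.6 and 347. In liver Dcpp3 ran from 3.62 to 373 plain CPM, so the lower means lay at the level of liver and the fold sizes are uncertain. Its interaction was 4.86 (SE 0.81, adjusted p = 0.0207), and in CD1 alone its gland difference of -1.69 was not called (adjusted p = 0.188).

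Dcpp2, its near-identical neighbour, had no such interaction (0.57, adjusted p = 0.891). The promoters of both are shown because these copies differ in strain pattern and in few bases. They are chr17:23898472-23898721 for Dcpp2 and chr17:23917208-23917457 for Dcpp3, plus strand, GRCm38.p6 from RefSeq, with TATAAG in capitals.
Dcpp2: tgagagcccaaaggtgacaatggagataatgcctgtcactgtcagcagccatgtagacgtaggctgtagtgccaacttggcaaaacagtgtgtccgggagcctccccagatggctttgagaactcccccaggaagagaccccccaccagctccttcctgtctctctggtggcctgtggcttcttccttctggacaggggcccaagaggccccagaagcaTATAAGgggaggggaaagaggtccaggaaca
Dcpp3: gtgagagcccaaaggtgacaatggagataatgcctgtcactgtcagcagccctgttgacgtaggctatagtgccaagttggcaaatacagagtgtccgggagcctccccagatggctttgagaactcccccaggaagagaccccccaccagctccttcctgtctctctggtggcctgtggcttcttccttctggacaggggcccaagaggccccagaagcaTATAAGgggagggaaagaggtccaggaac
TATAAG, searched on both strands, was found in all 3 Dcpp genes and in 7.69% of all genes with a promoter entry. The windows of Dcpp2 and Dcpp3 were 97.7% identical over 298 aligned bases. Reads of these copies can be exchanged, and CD1 sequence can differ from the reference, so the strain value of Dcpp3 is uncertain; the part of mapping in it was not tested.

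Mucl1 was the mirror case in submandibular gland, with means of 56650 CPM in CD1 females and 30560 in CD1 males against 31.8 and 139 in C57. In liver Mucl1 ran from 0.475 to 186 plain CPM, so the C57 means lay at the level of liver and the fold sizes are uncertain. CD1 male 3 stood apart from the other CD1 animals at 98.3 CPM, and the interaction of 6.18 (SE 1.93, adjusted p = 0.300) did not pass. Its pooled gland difference of 5.42 (adjusted p = 0.0186) was not called with C57 male 2 kept (4.51, adjusted p = 0.0606). Leaving out any 1 animal moved it by over 1.5 times, to between 4.56 without CD1 male 1 and 6.19 without C57 male 3. Ltf passed, at -2.59 (SE 0.38, adjusted p = 0.00947), with sublingual means of 229.9 CPM in CD1 and 21.6 in C57. Scgb2b27 passed at 3.11 (adjusted p = 0.0142) and Bcas1 at -2.96 (adjusted p = 0.00500).

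The genes with the smallest p for strain differed in level, with sublingual medians from 0.684 plain CPM for Camk2b to 51.4 for Fbp2. Camk2b, a calcium-dependent kinase, averaged 11 CPM in C57 and 0.348 in CD1 sublingual glands and 1.48 and 0.785 in submandibular glands (4.08, SE 0.30, adjusted p = 0.000173). The fructose transporter Slc2a5 (2.16, SE 0.19), the netrin receptor Unc5a (3.04, SE 0.32) and the tocopherol transfer protein Ttpa (1.67, SE 0.18) followed, with adjusted p up to 0.00228. In the other direction St6galnac6, a sialyltransferase, averaged 17 CPM in CD1 and 5.60 in C57 sublingual glands (-1.76, SE 0.21, adjusted p = 0.00436). Dusp4 (-2.17, SE 0.25), Fbp2 (-1.68, SE 0.23) and Btg3 (-1.38, SE 0.19) went with it, and Fbp2 lost its call without C57 male 3 (adjusted p = 0.0519) and Btg3 without C57 male 1 (adjusted p = 0.0628).

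**Figure D4:**
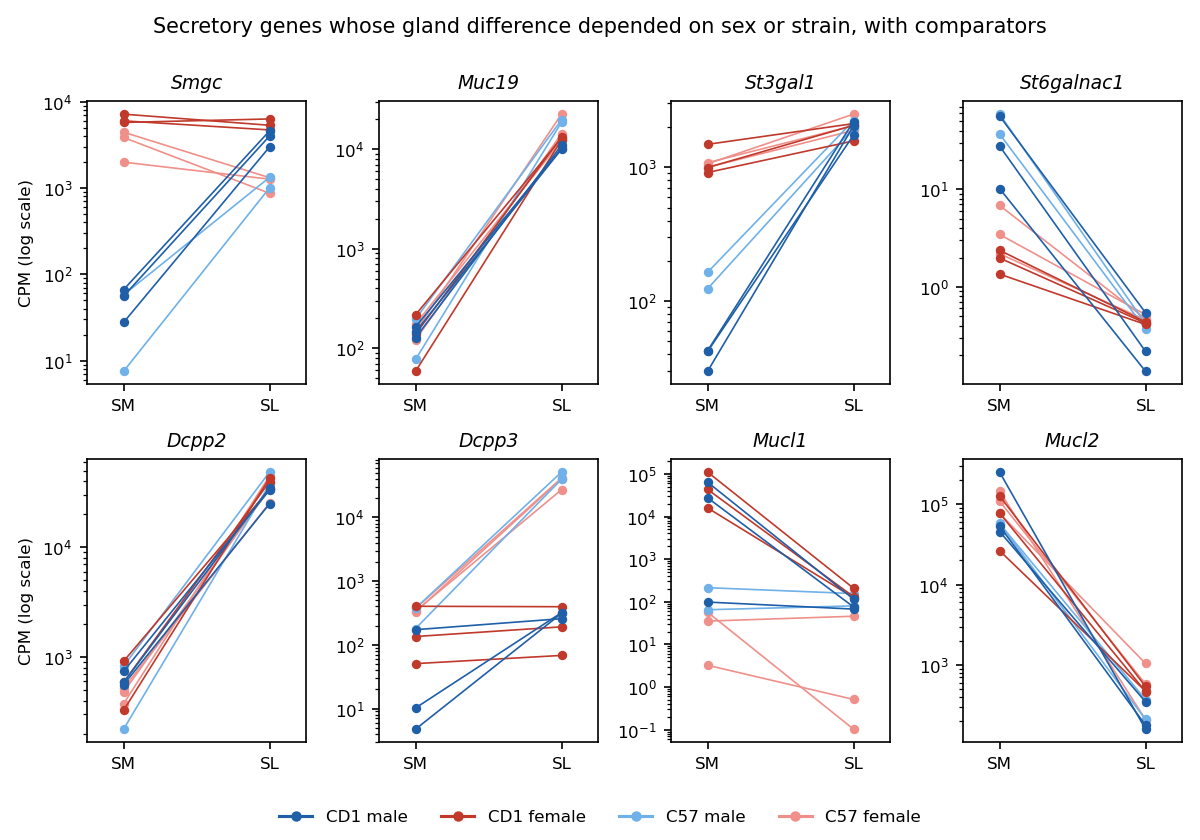
Level in CPM (log axis) of 8 secretory or sugar-chain genes in the submandibular (SM) and sublingual (SL) library of each animal, coloured by strain and sex. Smgc and St3gal1 are low in SM of males, St6galnac1 is higher in SM of males, Dcpp3 is high in SL of C57 only, Mucl1 is high in SM of CD1 except CD1 male 3, and Muc19, Dcpp2 and Mucl2 separate the glands in every animal.

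Leaving out CD1 male 1 and C57 female 1 kept the numbers of called granular duct products at 18 and 0 (submandibular and sublingual), ion transport genes at 12 and 2 and transcription factors at 8 and 11, and gave 8 and 5 acinar secretory products. Markers of other cell types were measured beside these programmes. Of 7 tested plasma cell markers, 5 were called higher in sublingual gland (Igha, Igkc, Jchain, Mzb1 and Pou2af1), and their summed level over the list ran from 109.8 to 1545 CPM in sublingual and from 307 to 668 in submandibular gland, Derl3 included. Igha, the heavy chain of immunoglobulin A, was at 43.7 to 1150 CPM in sublingual and 10.4 to 157 in submandibular gland (-2.41, SE 0.34, adjusted p = 3.81e-05). Derl3 was called the other way (3.38, SE 0.16, adjusted p = 7.99e-10), at 231 to 452 against 20.5 to 47.6 CPM; it serves protein quality control in secretory cells in general.

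Vwf, an endothelial marker, was higher in sublingual gland, at 177 to 312 CPM against 9.56 to 17.9 (-4.21, SE 0.10, adjusted p = 2.78e-12). The other 7 endothelial markers did not follow it: Kdr (1.04) and Emcn (1.04) were called higher in submandibular gland, and Pecam1 (0.66) and Cdh5 (0.82) leaned the same way under 2-fold. Of 8 myoepithelial and smooth muscle markers 3 were called higher in sublingual gland (Acta2, Cnn1 and Actg2), with a summed level of 996 to 1997 CPM in sublingual and 396 to 1379 in submandibular gland. This depended on sex, with Acta2 at -0.48 in males and -2.15 in females (interaction 1.67, SE 0.21, adjusted p = 0.000398).

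No parotid, macrophage or fibroblast marker was called between the glands, of 5, 8 and 8 tested. By adjusted p alone, 1 macrophage and 1 fibroblast marker passed, where 47.3% of all genes passed. Over all genes 7.7% were called higher in submandibular and 8.28% higher in sublingual gland, so few calls are likely in lists this short. Of 8 adipocyte markers tested, 3 were called toward the submandibular and 1 toward the sublingual gland, with a median of 1.15. Without CD1 male 1 and C57 female 1 the numbers were 5 and 1, and in females alone 0 and 1. Of 8 lymph node and B cell markers tested, 1 was called toward the submandibular gland, Ms4a1, at a mean of 0.817 CPM. Skeletal muscle markers, of 7 tested, and nerve and glia markers, of 5 tested, each gave 1 call in each direction. What these cell types add to the programme differences was not tested.

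The level in the lower gland was set beside the level in liver, a tissue without salivary acini or ducts, using plain CPM medians. For 9 of the 12 genes with the largest difference toward the submandibular gland, and 11 of the 12 toward the sublingual gland, the lower gland's median was under 2 times the liver median; Car6, Scgb1b27, Scgb2b27 and Kcne1 were the exceptions. Prol1 was at 297 in sublingual gland and 251 in liver, Muc19 at 114 in submandibular gland and 104 in liver, and Nkx2-3 at 0.986 and 0.997. The liver medians were 0.465% to 6.69% of the higher gland's median for the submandibular genes and 0.447% to 1.88% for the sublingual genes. Sel1l3 was lower in submandibular gland (11.96) than in liver (22.04). Where the lower gland lay at the level of liver, the fold sizes are uncertain. Low expression in the lower gland was not told apart from a level that liver libraries share, whose source was not tested.

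Some products of the higher gland had a median above that level in the other gland. Sublingual Klk1 was at 2046 plain CPM against 92.6 in liver and Egf at 362 against 78.0, each with every sublingual library above every liver library. Sublingual Scgb2b27 had a median of 845 against 197, but its range from 133 to 4530 overlapped that of liver, which reached 276. Adra1a was lower in sublingual gland (0.819) than in liver (5.19), which expresses this receptor.

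**Figure D5:**
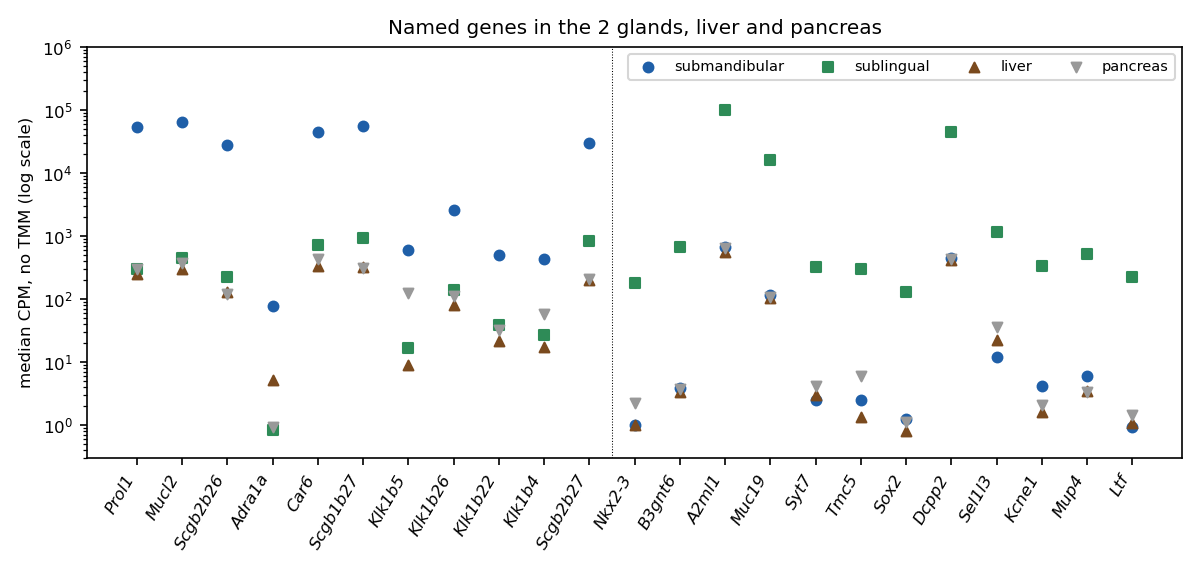
Median plain CPM (log axis) of genes with the largest gland differences, in submandibular (blue circles), sublingual (green squares), liver (brown triangles) and pancreas (grey triangles) libraries; genes left of the dotted line are higher in submandibular and those right of it higher in sublingual gland. The lower gland lies close to liver for most genes, and Adra1a is below liver in sublingual gland.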

How the data were processed

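Poly(A)-selected RNA of mouse tissue was sequenced, per the labels' protocols. The authors deposited a table of raw read counts per gene with gene lengths, 1 column per library; per the submitters' processing notes, Trim Galore, HISAT2 and featureCounts on GRCm39 (mm39) were used, with versions and settings not given in the sources used here. Values from 1 to 20 were even 1.57 times as often as odd; whether both reads of a pair were counted is not given in the sources used here. Positions are the exon listed per gene. Depth is given in the report; p-values measure the spread between animals.

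Gland libraries were paired by the animal in the library name, and paired deviations from group means correlated at 0.114 to 0.447 in all 11 animals (14183 genes). Counts were tested with edgeR 4.0.16 (R 4.3.3, limma 3.58.1): quasi-likelihood test, TMM scaling, default filter by gland, animal as a block. A gland call needed adjusted p under 0.05 and at least 2-fold; the sex and strain contrasts, fitted with a gland difference for each of 4 groups, needed adjusted p under 0.05. CPM were computed here, with TMM over 22 libraries or plain. SE is the log2 difference divided by the square root of F. The gland and sex tests were tried on simulated counts with known changes. Of 100 genes changed by 1.5 on the log2 scale the gland test recovered 98 and the sex test 53. Of 100 changed by 3 they recovered 92 and 84. Among the unchanged genes the gland test called 3 and the sex test 9. A missing sex call therefore does not show equal gland differences. The strain test was not simulated, so a missing strain call does not show them either.

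Named genes were the 12 largest differences in each direction among calls at 100 CPM or more with the same sign in 11 pairs, the 4 smallest interaction p in each direction at 10 CPM or more, and list members; identifier-only names, pseudogenes and ribosomal genes were not eligible. Of 308 genes in 21 lists, 306 were in the table and 264 were tested; some listed and named genes are counted but not reported by name here. The members and lists were chosen with earlier results of these data known. Alternatives were DESeq2 1.42.0, 2 other scalings, no filter, no block, C57 male 2 kept, subsets and leaving out each animal; leaving out CD1 male 1 and C57 female 1 together was chosen after seeing the data. Replicate libraries of a group differed by more than sampling noise (chi-square per degree of freedom 25.6 to 577 over 20 pairs), so none was merged. Promoters come from RefSeq tables on GRCm38.p6; 10 of the 12 and 6 of the 12 named genes had an entry.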

Additional observations from a re-analysis of the deposited data

Results flagged for a closer look

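The gland difference depended on sex, by the test of the difference itself, in genes with a male minus female value of 4.31 for Faim2, 3.15 for St6galnac2, 2.72 for Coro2a and 6.29 for Klk1b27, all on the log2 scale. It was -3.90 for St3gal1, -2.83 for Mob3b, -6.92 for Tll1 and -6.92 for Smgc. The size for Smgc is uncertain, because its male submandibular values lay near the level of liver. That for Tll1 is uncertain too, because its male submandibular mean rests on few counts.

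The gland difference depended on strain, by the same kind of test, with a CD1 minus C57 value of 4.08 for Camk2b, 2.16 for Slc2a5, 3.04 for Unc5a and 1.67 for Ttpa. It was -2.17 for Dusp4, -1.76 for St6galnac6, -1.68 for Fbp2 and -1.38 for Btg3.

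The sublingual library of C57 male 2, which the comparison left out, exceeded each of the other 11 sublingual libraries in all 12 genes named as higher in submandibular gland. It held Prol1 at 22940 and Egf at 17320 plain CPM, where the other sublingual libraries reached 1062 and 648. Its sublingual products were present too, with Muc19 at 8450 plain CPM against a median of 16070 in the others. The submandibular library of the same animal held Prol1 at 45500.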

How the results depend on the processing

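The alternatives were followed for 110 gland, 8 sex and 8 strain results of single genes, all of them calls of the main fit. None of these 126 results reversed, and 2745 of 2818 comparisons kept their direction and their call. Having been chosen as calls, they could lose a call but not gain one. Genes not called, such as Smgc between the glands, and markers of other cell types were not followed in this way. The 73 others lost their call, 23 of them on leaving out 1 animal and 50 elsewhere. Among genes reported by name, calls were lost in females alone for Galnt1, St3gal1, St3gal4, Agr2, Etv1, Runx1, Klf4, Esrrg, Hspa5, Hyou1, P2rx4, Dcpp3 and Azgp1, and in males alone for Kcnma1, Fxyd2, Mucl1, Azgp1, Bpifa2, Galnt2, Foxc1 and Barx2. They were lost in CD1 alone for Klk1b8, Kcnma1, Dcpp3, Azgp1, Bpifa2, St3gal4 and Hspa5, and in C57 alone for Egf, Klk1b1, Klk1b8, Klk1b27, Wfdc2, P2rx4, Mucl1, St3gal4, Agr2, Etv1 and Esrrg. These fits hold 5 or 6 animals. Without the 2-fold requirement the gland difference gave 7981 calls. With no replicate block it gave 2717 calls, the sex contrast 1481 and the strain contrast 78, so the pairing moved no count by over 1.5 times.

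DESeq2 gave 1394 positive calls for sex, and 264 calls for strain, 133 positive and 131 negative. With no filter on low counts, 33330 genes were tested, and sex gave 2647 calls (1520 positive) and strain 437 (232 positive and 205 negative). Without CD1 male 1 and C57 female 1, sex gave 1116 calls (453 negative) and strain 46 (31 positive and 15 negative). The cause was not tested; fewer animals were fitted in the last case.

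Leaving out each animal in turn gave 2653 to 2765 gland calls (1239 to 1332 higher in submandibular, 1367 to 1433 higher in sublingual gland). It gave 710 to 1910 sex calls (390 to 1058 positive, 320 to 859 negative) and 20 to 96 strain calls (13 to 58 positive, 7 to 38 negative). Negative sex calls fell to 510 without C57 female 1. The C57 male group held 2 animals, which limits the sex and strain contrasts. Depth limits the genes printed at under 1 CPM, whose values rest on few counts.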
